A study of Mus musculus with 150 samples.

Results

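The hypothalamus was compared with the bed nucleus of the stria terminalis, which the labels write as BNST, in wild-type inbred mice. The comparison used 8 arrays chosen by their titles, out of 150 in the series: 4 of hypothalamus and 4 of BNST, each with 2 of strain 129 and 2 of strain B6, which these titles write as BL6. The series covers 24 neural tissues and further body tissues, profiled on a single Affymetrix platform with biotin-labelled target made from about 10 µg of total RNA. Age, sex and treatment were not given in the labels. Each title joins several hyphenated numbers, as pooled animals might be written, but the labels do not say what the numbers are. P-values therefore measure only the spread between these samples, and the precision of every mean is limited by the 4 arrays behind it.

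The hypothalamus is the ventral diencephalic region that controls the pituitary, body fluids, feeding, temperature and sleep, and much of its output is peptide: vasopressin and oxytocin from magnocellular neurons, releasing hormones from parvocellular neurons, and orexin, pro-opiomelanocortin and neuropeptide Y from feeding and arousal circuits. The BNST is a small, mostly GABAergic forebrain nucleus of the extended amygdala, known for its part in stress, anxiety and social behaviour. It lies directly above the anterior hypothalamus and beside the front of the thalamus, the lateral ventricle and the fibre tracts around it.

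Several peptide precursors were higher in hypothalamus, while Cck, another precursor, was lower. Most tested genes of a thalamic list and some genes of forebrain neurons were higher in BNST. Of 5186 genes tested, 38 were higher in hypothalamus (0.733%) and 53 were lower (1.02%), 91 in all (1.75%), at a Benjamini-Hochberg adjusted p under 0.05 and a log2 difference of at least 1. Without the size threshold, 661 genes passed the adjusted p on the higher side (12.7%) and 591 on the lower side (11.4%). Counts of called list members below are to be read beside these shares. The lists were written with earlier results of these data known, so such comparisons describe the values and are not independent support. The median difference was 0.023 on the log2 scale over the tested genes and 0.018 over all 8251 genes. Pomc, Avp, Hdc and Adcyap1 had the largest positive differences, and Shox2, Gabrd, Ttr and Cck the largest negative ones. A positive difference means a higher level in hypothalamus. In whole-tissue RNA, fewer cells of a type and less RNA per cell cannot be told apart.

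**Figure D1:**
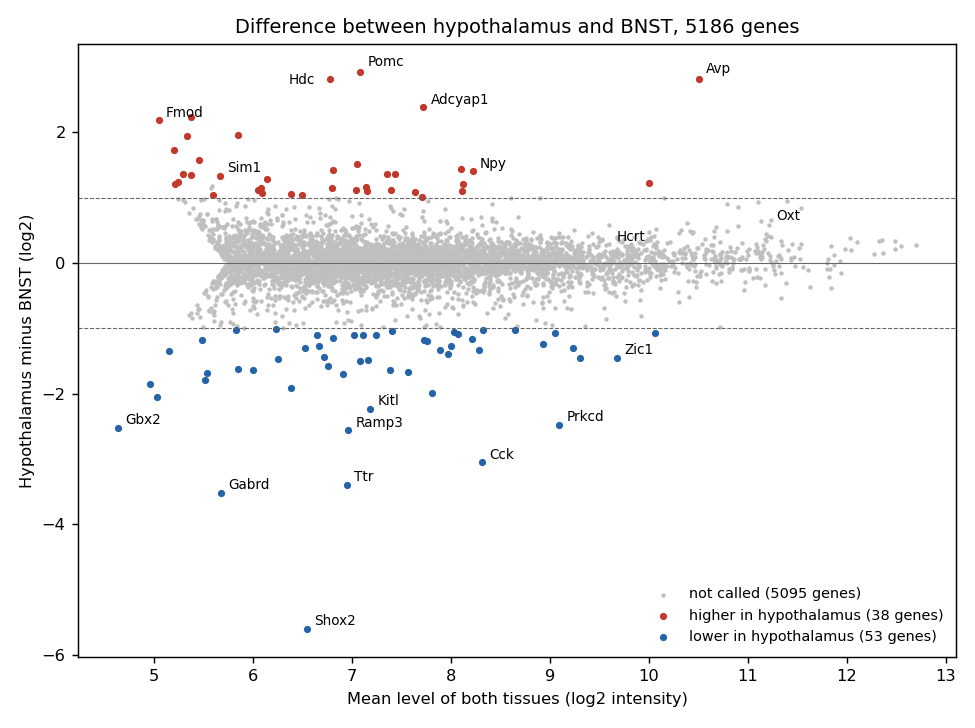
Each point is 1 of 5186 tested genes, with its mean level over both tissues on the horizontal axis (log2 intensity) and hypothalamus minus BNST on the vertical axis (log2). Red points are the 38 genes higher in hypothalamus, blue points the 53 lower ones, and the dashed lines mark a difference of 1. Shox2 lies far below all other points, at -5.60.

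The arrays were alike in brightness. Their 75th percentiles ran from 179 to 181 in hypothalamus and from 179 to 181 in BNST, and the ratio of 3′ to 5′ Gapdh signal ran from 0.917 to 1.18 in hypothalamus and from 0.921 to 1.03 in BNST. Some arrays stood apart in genes of neighbouring tissues. B6 hypothalamus replicate 1 carried pituitary hormone signal, with Gh, growth hormone, at 6967 where the other 3 hypothalamus arrays had 61.8 to 327 and the BNST arrays 215 to 648. Both 129 BNST arrays carried signal of choroid plexus genes, described further on. All 4 BNST titles begin with the number 4, while the hypothalamus titles begin with 2 and 3 in 129 and with 3 and 4 in B6, so the tissues are partly separated by that number. On the B6 arrays whose titles begin with 4, 1 of hypothalamus and 2 of BNST, all 91 genes differed in the same direction as on the 8 arrays, and 82 of them by at least 1. These arrays are among the 8 on which the genes were called, which favours that agreement. What part the title number has in the differences was not tested.

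The 300-base promoter windows of the genes that lead each direction, and of the marker Avp, are shown as context for the values that follow, as RefSeq gives them on GRCm38.p6 from 250 bases before to 50 bases after the transcription start. Capitals mark TATAAA, the TATA box, searched on both strands.
Pomc promoter, chr12:3954695-3954994, plus strand: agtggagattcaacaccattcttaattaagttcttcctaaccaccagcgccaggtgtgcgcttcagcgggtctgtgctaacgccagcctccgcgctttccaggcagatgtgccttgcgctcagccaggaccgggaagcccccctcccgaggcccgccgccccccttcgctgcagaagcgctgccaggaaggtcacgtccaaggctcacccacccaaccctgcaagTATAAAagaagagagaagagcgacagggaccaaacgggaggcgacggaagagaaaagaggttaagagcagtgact
Avp promoter, chr2:130582539-130582838, minus strand: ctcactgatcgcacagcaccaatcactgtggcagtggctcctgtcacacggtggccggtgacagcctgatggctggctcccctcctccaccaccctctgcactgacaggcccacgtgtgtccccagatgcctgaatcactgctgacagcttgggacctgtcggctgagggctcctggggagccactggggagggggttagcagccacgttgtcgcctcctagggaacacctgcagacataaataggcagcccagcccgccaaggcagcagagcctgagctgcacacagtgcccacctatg
Shox2 promoter, chr3:66981722-66982021, minus strand: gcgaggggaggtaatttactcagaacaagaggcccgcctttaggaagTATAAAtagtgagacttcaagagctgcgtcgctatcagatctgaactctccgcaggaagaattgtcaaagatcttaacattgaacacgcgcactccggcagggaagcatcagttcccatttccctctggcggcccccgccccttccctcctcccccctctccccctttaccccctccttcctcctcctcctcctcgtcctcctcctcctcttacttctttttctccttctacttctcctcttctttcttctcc
In the Pomc window the TATAAA begins 25 bases before the start, and in the Shox2 window 203 bases before it. Those letters are not in the Avp window. TATAAA was present in 13.6% of all 32851 mouse promoter windows. Counted per gene over those with a window, it was present for 8 of 32 genes higher in hypothalamus (25.0%), for 11 of 43 lower genes (25.6%) and for 396 of 4199 tested genes (9.43%). Windows with 15 or more CG pairs belonged to 11 of the 32 higher genes (34.4%), 27 of the 43 lower genes (62.8%) and 79.1% of the tested genes. TGACGTCA, the cyclic AMP response element, was searched in the same way and was present for 0 genes of either group and for 3.62% of the tested genes. These shares describe letters in the windows and carry no test.

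Among the hypothalamic peptides, Avp, Pomc, Trh and Ghrh rose. The list held 21 genes, 10 of them on the arrays and 8 tested, with 4 called higher and 0 lower. These 4 of 8 stand beside 0.733% of all tested genes. The list's median difference was 0.86 over the tested members and 0.86 over all 10, against 0.023 over all tested genes. Without the size threshold, 7 of the 8 passed the adjusted p on the higher side, where 12.7% of all tested genes did.

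Avp, the precursor of vasopressin, the antidiuretic hormone of magnocellular neurons, had intensities of 3434 and 3876 on the 129 and 4510 and 3761 on the B6 hypothalamus arrays, against 713 and 563 on the 129 and 726 and 309 on the B6 BNST arrays. The lowest hypothalamus array was far above the highest BNST array. The log2 difference was 2.82 ± 0.22 (SE), a fold of 7.08, with an adjusted p of 3.36e-06. Of the 24 neural tissues, hypothalamus had the highest mean Avp level and BNST the second highest, 11.92 and 9.10 on the log2 scale, and midbrain-thalamus came next with 7.45.

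Oxt, the precursor of oxytocin and the genomic neighbour of Avp, was high in both tissues. Its intensities were 2812 and 2379 on the 129 and 3500 and 3045 on the B6 hypothalamus arrays, against 1762 and 1790 on the 129 and 2283 and 1971 on the B6 BNST arrays. The groups did not overlap, and the adjusted p was 0.000175, but the log2 difference of 0.58 ± 0.07 was under the size threshold and Oxt was not called. Hypothalamus and BNST also led the 24 neural tissues for Oxt, with mean log2 levels of 11.50 and 10.92, and midbrain-thalamus followed with 9.62.

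Hcrt, the precursor of the orexins of the lateral hypothalamus, was measured at 704 and 691 on the 129 and 1534 and 1091 on the B6 hypothalamus arrays, against 1005 and 468 on the 129 and 726 and 473 on the B6 BNST arrays. The tissues overlapped, and the difference of 0.58 ± 0.26 did not pass the test (adjusted p = 0.131). Fitted in B6 alone it was 1.14 (adjusted p = 0.00237), and in 129 alone 0.02. The interaction of tissue with strain had an adjusted p of 0.168. Hypothalamus and BNST again had the highest and second highest means of the 24 neural tissues, 9.89 and 9.31, and amygdala and striatum had 4.48 and 5.11. Avp, Oxt and Hcrt thus had their highest neural means in hypothalamus and their second highest in BNST, and of these 3 Avp was the one called between the tissues.

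Pomc, which encodes the precursor of the melanocortins, corticotropin and beta-endorphin, had the largest positive difference. It was measured at 477 and 336 on the 129 and 464 and 263 on the B6 hypothalamus arrays, against 43.0 and 45.9 on the 129 and 47.8 and 62.0 on the B6 BNST arrays. Every hypothalamus array was above every BNST array, with a log2 difference of 2.93 ± 0.18, a fold of 7.61 and an adjusted p of 7.58e-07. Pomc is expressed by arcuate neurons and also by corticotrophs of the pituitary, where its mean log2 level was 13.72. Without B6 hypothalamus replicate 1, the array with high Gh, the difference was 2.81 (adjusted p = 1.39e-06).

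The smaller peptide calls were as even across arrays. Ghrh, growth hormone-releasing hormone of the arcuate nucleus, had 81.9 and 98.7 on the 129 and 115 and 103 on the B6 hypothalamus arrays, against 42.6 to 51.1 over the BNST arrays, a difference of 1.08 ± 0.12 (adjusted p = 6.42e-05). A second, dim Ghrh probe set differed by 0.41. The mean log2 level of Ghrh was 6.86 in pituitary, against 6.63 in hypothalamus. Trh, thyrotropin-releasing hormone of the paraventricular nucleus, ran from 264 to 316 in hypothalamus, against 141 to 155 in BNST. Its difference of 1.01 ± 0.08 sits at the size threshold, and the call was lost, at differences of 0.978 to 0.995, when any of 4 arrays was left out: 129 or B6 hypothalamus replicate 2, or 129 or B6 BNST replicate 2. Gal, galanin, and Gnrh1, gonadotropin-releasing hormone, differed by 0.69 ± 0.07 and 0.72 ± 0.19 and were not called. Vip, a peptide of the suprachiasmatic nucleus, was below the level filter, with 38.5 to 64.4 in hypothalamus against 10.4, the floor, to 20.3 in BNST.

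Of 20 more widely expressed neuropeptides, 14 were on the arrays and 10 were tested. Among the 10, 2 were higher and 1 lower, beside 0.733% and 1.02% of all tested genes, with a median difference of -0.04. Adcyap1, the precursor of the peptide PACAP, which acts in the ventromedial hypothalamus on energy balance, had 477 and 521 on the 129 and 457 and 477 on the B6 hypothalamus arrays, against 96.9 and 81.1 on the 129 and 105 and 88.5 on the B6 BNST arrays. Its difference was 2.38 ± 0.09, a fold of 5.21 (adjusted p = 1.47e-08), and no other of the 24 neural tissues had a higher mean than hypothalamus. Npy, neuropeptide Y, ran from 348 to 645 in hypothalamus, against 147 to 242 in BNST, a difference of 1.40 ± 0.10 (adjusted p = 1.36e-06). Hypothalamus ranked 13 and BNST 15 of the 24 tissues for Npy. Tac1, the precursor of substance P, had a rounded difference of 1.00 ± 0.09, just under the threshold.

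Cck, the precursor of cholecystokinin, a peptide of cortical, thalamic and amygdalar neurons, went the other way. It was measured at 97.4 and 96.7 on the 129 and 118 and 133 on the B6 hypothalamus arrays, against 947 and 1136 on the 129 and 804 and 814 on the B6 BNST arrays. The gap between the tissues was several times the spread within either, and the difference was -3.05 ± 0.13 (adjusted p = 3.53e-08). Cck was higher still in amygdala and midbrain-thalamus, with mean log2 levels of 10.76 and 10.08 against 9.84 in BNST.

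**Figure D2:**
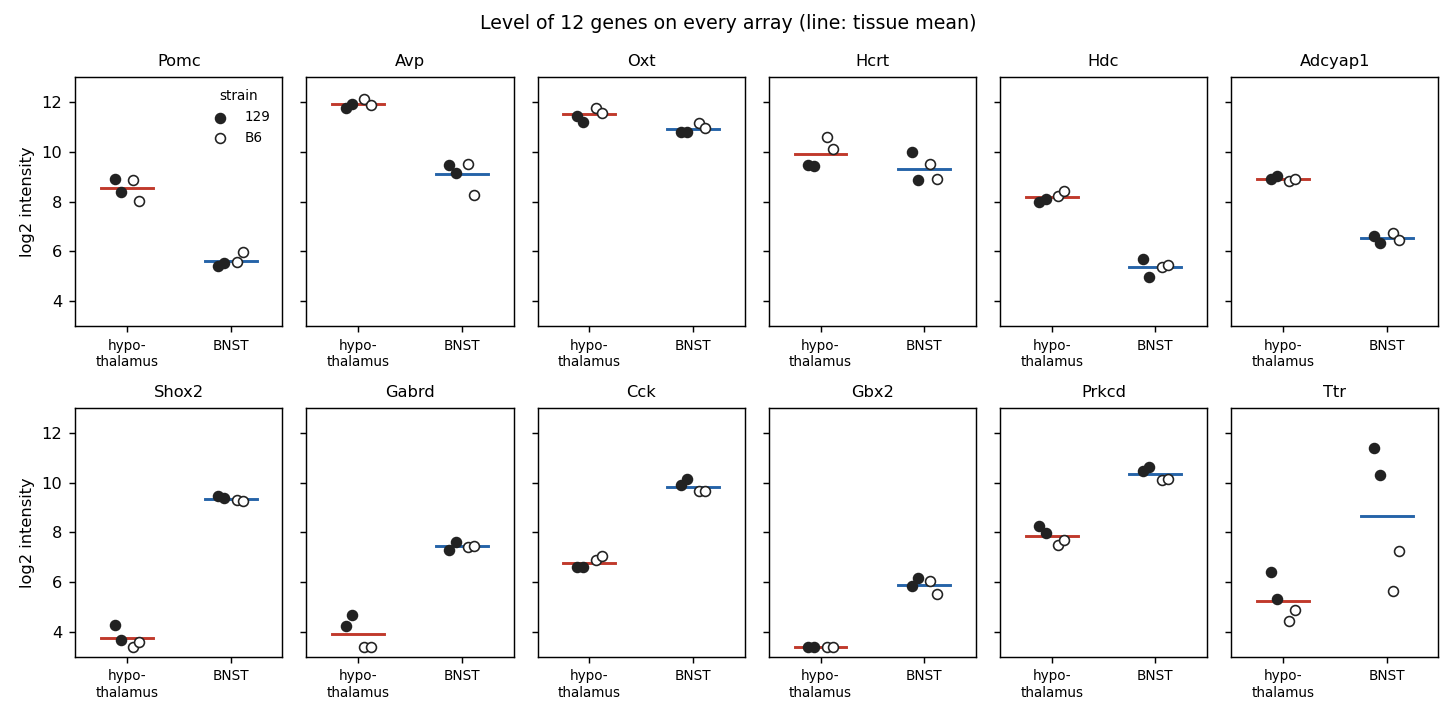
Level of 12 genes on every array (log2 intensity), with hypothalamus left and BNST right in each panel. Filled circles are strain 129, open circles B6, and lines are tissue means of 4 arrays. Avp, Pomc, Hdc and Adcyap1 separate with hypothalamus above, Shox2, Gabrd, Cck, Gbx2 and Prkcd with hypothalamus below, Hcrt overlaps, and Ttr is high on the 129 BNST arrays.

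No peptide-processing gene passed the size threshold. These genes encode granins and the enzymes that cut and amidate prohormones. Of 10 tested, 0 were called in either direction, and the median difference was 0.24. The adjusted p alone was passed by 6 on the higher side and 0 on the lower, beside 12.7% and 11.4% of all tested genes. Resp18, a protein of dense-core vesicles, had the largest difference, 0.91 ± 0.07. It ran from 2120 to 2562 in hypothalamus, against 1244 to 1344 in BNST.

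Hdc and Ddc, enzymes of amine synthesis, rose in hypothalamus. They were 2 of 6 tested members of the monoamine and acetylcholine list, with 14 on the arrays, beside 0.733% of all tested genes, while 0 fell, and the median difference was 0.66. Hdc, histidine decarboxylase, makes histamine and marks the tuberomammillary neurons of the posterior hypothalamus. Its intensities were 253 and 274 on the 129 and 298 and 347 on the B6 hypothalamus arrays, against 51.5 and 31.1 on the 129 and 41.8 and 43.4 on the B6 BNST arrays. That is a separation with no overlap, at a difference of 2.82 ± 0.14 and a fold of 7.06 (adjusted p = 1.49e-07). Ddc, the decarboxylase of dopamine and serotonin synthesis, ran from 252 to 349 in hypothalamus, against 120 to 152 in BNST, a difference of 1.08 ± 0.10 (adjusted p = 1.66e-05) that was 0.98 without 129 BNST replicate 2. Th, tyrosine hydroxylase, differed by 0.83 and was not called.

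Peptide and hormone receptors were mostly too dim to test. Of 41 listed, 31 were on the arrays, 11 were tested, and 5 of the 31 stood at the floor on all 8 arrays. Calcr, the calcitonin receptor, rose: it had 170 and 147 on the 129 and 110 and 103 on the B6 hypothalamus arrays, against 80.5 and 64.4 on the 129 and 56.7 and 53.5 on the B6 BNST arrays. The difference was 1.04 ± 0.11 (adjusted p = 4.77e-05), and it was under the size threshold, at 0.98 and 0.96, without 129 hypothalamus replicate 1 or without 129 BNST replicate 2. Calcr was at the floor on all 4 arrays of amygdala, of striatum and of midbrain-thalamus. Mc3r, a melanocortin receptor below the filter, had at least 33.4 on every hypothalamus array, against at most 19.5 in BNST. Avpr1a, Npy1r and Crhr1, receptors also below the filter, differed by 0.26, 0.17 and 0.06. The median difference of the receptor list was 0.31 over the tested members and 0.17 over all 31. Among 5 tested steroid receptor and synthesis genes, 1 fell, Rora, an orphan nuclear receptor also placed on the thalamic list, and 0 rose.

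Sim1 was the called hypothalamic transcription factor. It is required for neurons of the paraventricular and supraoptic nuclei. Its intensities were 90.9 and 80.1 on the 129 and 70.6 and 81.5 on the B6 hypothalamus arrays, against 32.2 and 28.9 on the 129 and 36.4 and 30.8 on the B6 BNST arrays, a difference of 1.33 ± 0.15 (adjusted p = 6.35e-05) with no overlap. Hypothalamus had the highest and BNST the second highest mean of the 24 tissues, 6.33 and 5.00, and amygdala followed with 4.87. Sim1 was tested through its hypothalamus level alone, and a filter on the mean over the 8 arrays left it out. Of 31 listed factors, 20 were on the arrays and 8 were tested, with 1 called higher, 0 lower and a median of 0.40, while over all 20 the median was 0.56. Several dim members were below the filter, so their differences carry no test. Foxb1, a factor of the mammillary region, had 34.6 to 41.9 in hypothalamus, against 10.4 to 18.5 in BNST. Tbx3, a factor of the arcuate nucleus, had 38.2 to 48.8, against 10.4 to 20.1 in BNST. For both of them every hypothalamus array was above every BNST array, but the share of all genes separated in this way is not given here. Foxb1 and Tbx3 are examples, and the other untested members of the list are not shown.

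Imprinted genes, which are expressed from a single parental copy and are abundant in hypothalamus, gave 3 higher calls and 0 lower among 17 tested. Of all tested genes 0.733% were higher and 1.02% lower, and the list's median difference was 0.28. On the higher side 8 of the 17 passed the adjusted p, where 12.7% of all tested genes did. Magel2, a gene of the Prader-Willi region, had 489 and 375 on the 129 and 419 and 414 on the B6 hypothalamus arrays, against 197 and 211 on the 129 and 170 and 158 on the B6 BNST arrays, a difference of 1.21 ± 0.09 (adjusted p = 3.36e-06). Dlk1, a membrane ligand of the Notch family, ran from 355 to 467 in hypothalamus, against 181 to 194 in BNST, a difference of 1.11 ± 0.09 (adjusted p = 4.03e-06). Dlk1 is also a pituitary gene. Its difference was 1.06 without B6 hypothalamus replicate 1 and 0.93, under the size threshold, when both 129 BNST arrays were left out as well. Nnat, neuronatin, differed by 0.95 ± 0.05 and was not called.

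Other higher genes had varied roles. Bdnf, the neurotrophin, was even across arrays: it had 290 and 280 on the 129 and 265 and 281 on the B6 hypothalamus arrays, against 101 to 113 over the BNST arrays, a difference of 1.37 ± 0.07 (adjusted p = 3.12e-07). The immediate early genes listed with it, such as Fos and Egr1, gave no other call, and Bdnf was the only one called of 9 tested. Gfap, the intermediate filament of astrocytes, ran from 381 to 614 in hypothalamus, against 161 to 179 in BNST, a difference of 1.43 ± 0.11 (adjusted p = 2.75e-06). Of 12 tested astrocyte genes, Gfap alone was called, and the list's median was 0.07. A second Gfap probe set differed by 0.85. Crabp1, a retinoic acid-binding protein, had its highest neural mean in hypothalamus and differed by 1.95 ± 0.20. Rbp4, the retinol carrier, and S100a6, a calcium-binding protein, differed by 2.23 ± 0.23 and 1.52 ± 0.09, with no overlap of the tissues in either. H2-Q1, a class I histocompatibility gene of a family with near-identical copies, differed by 1.95 ± 0.15, and its probe set may also read its relatives.

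Gstm6 and Txnrd3 were called with uneven arrays. Gstm6, a glutathione transferase with close paralogs, had 27.6 and 42.7 on the 129 and 170 and 164 on the B6 hypothalamus arrays, against 14.5 and 20.8 on the 129 and 38.8 and 35.6 on the B6 BNST arrays. The tissues overlapped across strains but not within a strain, and the difference was 0.99 in 129 and 2.16 in B6. Txnrd3, a thioredoxin reductase, had 172 to 336 in hypothalamus, against 141 to 146 on 3 BNST arrays and 36.6 on B6 BNST replicate 2. Its difference was 1.37 ± 0.31, and 0.94 without that array. A second, dim Txnrd3 probe set differed by 0.00.

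Fmod, Mgp and Col1a1, genes of the extracellular matrix, were uneven among the hypothalamus arrays. They stand here for their large differences and belong to no list. Fmod, fibromodulin, had 90.5 and 12.1 on the 129 and 196 and 116 on the B6 hypothalamus arrays, against 21.9 and 12.4 on the 129 and 14.1 and 15.4 on the B6 BNST arrays. 129 hypothalamus replicate 2 was as low as BNST. Mgp, matrix Gla protein, had 46.0 on that array and 154, 429 and 371 on the other hypothalamus arrays, against 62.0 to 83.6 in BNST. Fmod and Mgp passed the test with differences of 2.18 ± 0.59 (adjusted p = 0.0197) and 1.42 ± 0.44 (adjusted p = 0.0359). Both calls were lost when any of 5 arrays was left out: 129 hypothalamus replicate 1, either B6 hypothalamus array or either B6 BNST array. The Mgp difference then ran from 1.14 to 1.32. The Fmod difference ran from 1.84 to 2.10, except that Fmod was below the level filter without B6 hypothalamus replicate 1. A second, dim Fmod probe set differed by -0.05. Col1a1, a type I collagen chain, had 41.0 on the same low array and 63.9 to 93.4 on the others, against 15.3 to 23.4 in BNST, and its difference of 1.73 ± 0.25 (adjusted p = 0.000467) stayed called with each array left out. A second Col1a1 probe set, also above the level filter, differed by 0.43.

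The pituitary list was read against B6 hypothalamus replicate 1. Of 15 members on the arrays, 10 were tested and 2 rose (Pomc and Dlk1), beside 0.733% of all tested genes, while 0 fell. The median difference was 0.36. The mean log2 level of the list ran from 5.94 to 7.10 over the hypothalamus arrays, against 5.75 to 5.99 over the BNST arrays, and the value of 7.10 was that of B6 hypothalamus replicate 1. Prl, prolactin, was at 914 there and at 18.0 to 31.9 on the other hypothalamus arrays, against 26.1 to 73.0 in BNST. Cga, the common subunit of the glycoprotein hormones, was at 265 there and at 34.1 to 74.1 on the others, against 26.8 to 41.1 in BNST. Gh, Prl and Cga were not called, with adjusted p of 0.938, 0.729 and 0.0546. Without that array 34 genes were higher and 62 lower, and 80 of the 91 calls were kept.

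Of the red-cell list, 2 genes were on the arrays, 1 was tested and 0 were called. Hba-a1, an alpha globin, ran from 2338 to 3018 in hypothalamus, against 1187 to 1633 in BNST, a difference of 0.86 ± 0.10 that was under the size threshold. The mean of both red-cell genes, Alas2 being too dim to test, ran from 8.05 to 8.73 in hypothalamus, against 6.88 to 7.66 in BNST. Microglial and endothelial lists gave no call in either direction among 8 tested genes each, with medians of -0.06 and -0.00. Clock genes gave no call of 13 tested, with a median of 0.04. Among 5 tested genes of tanycytes and ependyma, the cells that line the ventricles, 1 rose, Mia, with 45.6 to 76.2 in hypothalamus against 10.4 to 53.3 in BNST, a difference of 1.36 ± 0.38 (adjusted p = 0.022) that was lost when any of 5 arrays was left out: 129 hypothalamus replicate 2, either B6 hypothalamus array, 129 BNST replicate 2 or B6 BNST replicate 2. Mia ran from 894 to 1096 in choroid plexus and from 541 to 837 in pituitary. What part blood, pituitary, choroid plexus or meningeal tissue has in any difference was not tested.

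**Figure D3:**
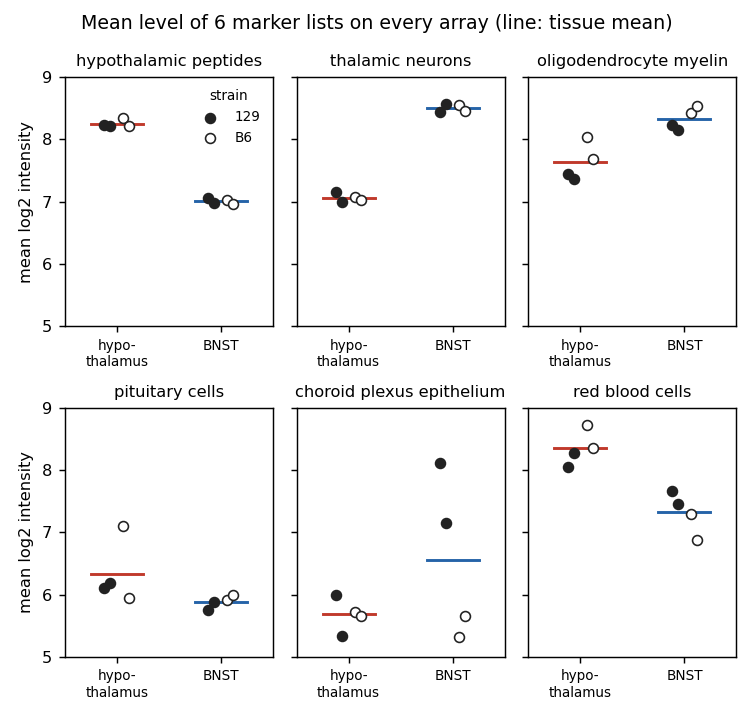
Mean log2 intensity of 6 marker lists on every array, hypothalamus left and BNST right, with strain 129 as filled circles and B6 as open circles; lines are means of 4 arrays. The thalamic list runs from 6.99 to 7.15 in hypothalamus and from 8.44 to 8.57 in BNST, the pituitary list is high on 1 B6 hypothalamus array, and the choroid plexus list is high on the 129 BNST arrays.

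Most tested genes of thalamic neurons were lower in hypothalamus. Of 14 listed, 10 were on the arrays and all 10 were tested, of which 7 fell and 0 rose, against 1.02% of all tested genes. This list too was written with earlier results of these data known, and Zic1, Rora and Prkcd are also on other lists. The median difference was -1.48, and 9 of the 10 passed the adjusted p on the lower side, where 11.4% of all tested genes did. Calb2, calretinin, was the exception, with a difference of 0.15 (adjusted p = 0.221).

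Gbx2, a homeobox factor needed for thalamic development, was at the floor of 10.4 on all 4 hypothalamus arrays, against 58.1 and 71.5 on the 129 and 66.1 and 46.4 on the B6 BNST arrays. It was therefore at least 5.74-fold lower in hypothalamus (adjusted p = 1.36e-05), and the bound moves with the floor: at the 40th percentile the difference was -0.87, under the size threshold. Gbx2 was also at the floor on all 4 arrays of amygdala, of striatum and of PAG, and ran from 48.2 to 65.0 in midbrain-thalamus.

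Prkcd, protein kinase C delta, is high in thalamic relay neurons and in GABAergic cells of the central amygdala and oval BNST. Its intensities were 308 and 252 on the 129 and 180 and 207 on the B6 hypothalamus arrays, against 1406 and 1570 on the 129 and 1104 and 1144 on the B6 BNST arrays, a difference of -2.48 ± 0.08 (adjusted p = 3.03e-09). Midbrain-thalamus had 1554 to 1787 and amygdala 169 to 289. A second Prkcd probe set differed by -3.77. Tcf7l2, a Wnt effector of thalamus and habenula, ran from 39.8 to 45.4 in hypothalamus, against 147 to 178 in BNST, and fell by 1.91 on the log2 scale (SE 0.11, adjusted p = 3.62e-07). Rora ran from 88.3 to 125 in hypothalamus, against 376 to 546 in BNST, a difference of -1.99 ± 0.13 (adjusted p = 1.32e-06). Second, dim probe sets of Tcf7l2 and Rora differed by -0.22 and -0.31. Tnnt1, a troponin used as a thalamic marker, had 62.7 to 100 in hypothalamus, against 177 to 303 in BNST. Lef1, another Wnt effector, had 86.5 to 131, against 210 to 239 in BNST.

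Shox2, a homeobox factor of thalamic and midbrain neurons, had the largest difference of either direction. It was measured at 19.6 and 12.9 on the 129 and 10.6 and 12.2 on the B6 hypothalamus arrays, against 707 and 660 on the 129 and 635 and 610 on the B6 BNST arrays. Hypothalamus was thus near the floor and BNST even across its arrays, with a difference of -5.60 ± 0.14 and an adjusted p of 2.76e-10. The size depends on the floor at so low a level, and with the floor at the 40th percentile it was -4.32. The second Shox2 probe set differed by -3.36. Midbrain-thalamus had 495 to 593, PAG 216 to 432 and amygdala 17.4 to 29.6. Ramp3, a partner protein of the calcitonin receptor family, had 37.8 to 60.2 in hypothalamus, against 268 to 341 in BNST, a difference of -2.56 ± 0.13 (adjusted p = 1.41e-07), and ran from 252 to 309 in midbrain-thalamus and from 18.0 to 32.4 in amygdala.

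Over the 10 thalamic genes on the arrays, hypothalamus minus midbrain-thalamus had a median of -1.40 and ran from -2.88 to 0.21, while BNST minus midbrain-thalamus had a median of -0.27 and ran from -0.78 to 0.93. BNST was closer to midbrain-thalamus than hypothalamus was for 7 of the 10. Gbx2 had mean log2 levels of 5.90 in BNST and 5.77 in midbrain-thalamus, and Prkcd 10.34 and 10.74, while Zic1 was higher in BNST, at 10.41 against 9.64, and Tnnt1 lower, at 7.84 against 8.62. Shox2 and Ramp3, which are not on the list, had 9.35 and 8.24 in BNST and 9.10 and 8.11 in midbrain-thalamus. The next 3 genes, known from forebrain and GABAergic neurons, were chosen after their values were seen and do not stand for their lists. Midbrain-thalamus levels of most other members of those lists are not given here. Between hypothalamus and BNST the telencephalic list had a median of -0.00 over its 27 members on the arrays. The list of GABA synthesis and transport had no call. Lhx6 had means of 7.66 in BNST, 7.57 in entorhinal cortex and 5.92 in midbrain-thalamus, Nr2f1 had 8.96 in BNST, 8.91 in amygdala and 7.71 in midbrain-thalamus, and Gad2 had 8.31 in BNST and 6.54 in midbrain-thalamus. Isl1 differed by 0.56 between hypothalamus and BNST and was not called. How much of the difference from hypothalamus comes from thalamic cells on the BNST arrays was not tested.

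**Figure D4:**
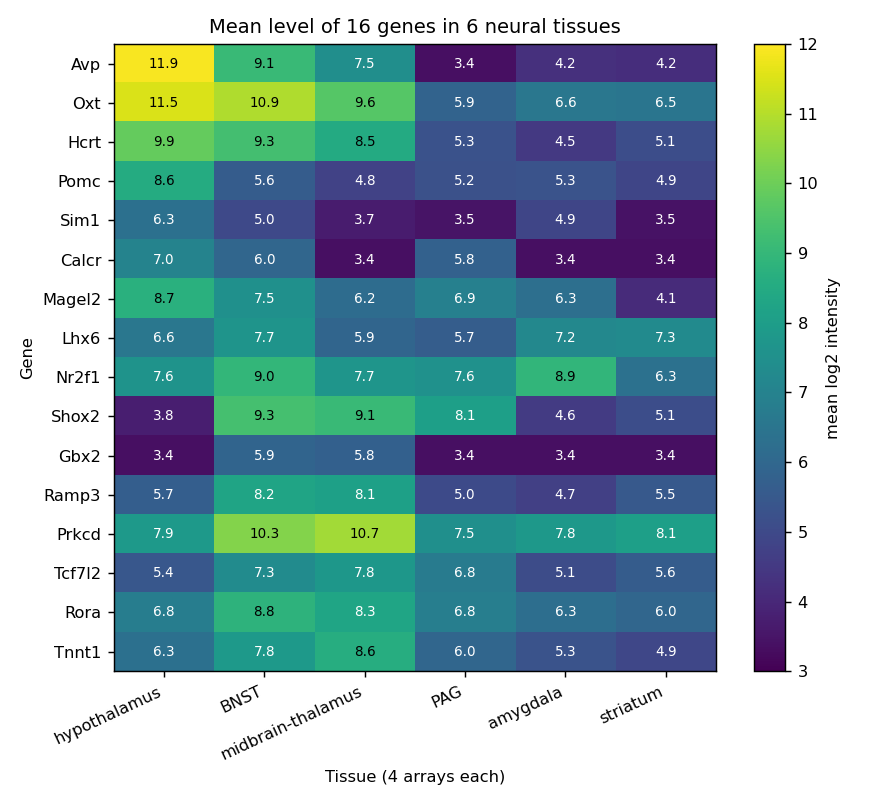
Mean log2 intensity of 16 genes (rows) in 6 neural tissues (columns, 4 arrays each), with the value printed in each cell. Avp, Oxt and Hcrt are highest in hypothalamus, then BNST, then midbrain-thalamus, while Shox2, Gbx2, Ramp3 and Prkcd are close in BNST and midbrain-thalamus and low in hypothalamus, amygdala and striatum.

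Among telencephalic transcription factors, Tbr1, Zic1, Nr2f1 and Lhx6 fell. The list had 14 tested members of 27 on the arrays, with 4 lower, beside 1.02% of all tested genes, and 0 higher. Its median difference was -0.32 over the tested members and -0.00 over all 27. Lhx6, which directs neurons of the medial ganglionic eminence into the basal forebrain and cortex, had 108 and 120 on the 129 and 79.7 and 77.3 on the B6 hypothalamus arrays, against 185 and 229 on the 129 and 186 and 213 on the B6 BNST arrays. Its difference was -1.10 ± 0.12 (adjusted p = 5.01e-05). Nr2f1, an orphan nuclear receptor of the developing forebrain, ran from 171 to 225 in hypothalamus, against 394 to 570 in BNST, a difference of -1.34 ± 0.09 (adjusted p = 1.41e-06). Zic1, a zinc finger factor of septum, thalamus and cerebellum, ran from 330 to 698, against 1166 to 1641 in BNST, a difference of -1.45 ± 0.11 (adjusted p = 3.36e-06). Tbr1, a factor of cortical projection neurons, ran from 14.8 to 42.6, against 63.0 to 102 in BNST, a difference of -1.79 ± 0.20 (adjusted p = 6.3e-05). Dlx1 and Dlx2, factors of GABAergic forebrain neurons, differed by 0.17 and 0.00.

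Gabrd, the delta subunit of extrasynaptic GABA-A receptors, had 18.6 and 25.8 on the 129 and the floor on both B6 hypothalamus arrays, against 157 and 195 on the 129 and 168 and 173 on the B6 BNST arrays, a difference of -3.52 ± 0.21 (adjusted p = 6.34e-07). With 2 of the 4 hypothalamus arrays at the floor this size follows the floor: it was -4.25 with the floor at the 10th percentile and -2.40 at the 40th. It ran from 101 to 140 in midbrain-thalamus, from 79.5 to 146 in amygdala and from 457 to 579 in striatum. The list of GABA synthesis and transport gave no call of 12 tested, with a median of -0.14. Gad2, a GABA-synthesizing enzyme, had 129 to 222 in hypothalamus, against 292 to 341 in BNST, a difference of -0.93. Glutamate transmission gave no call of 11 tested, with a median of -0.15.

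Of 19 tested genes on the calcium-binding and interneuron list, 3 fell, beside 1.02% of all tested genes, and 0 rose. The list's median was -0.07. The 3 were Cplx1 and Syt1, which act in fast vesicle release, and Pvalb, the calcium buffer of fast-spiking neurons. Cplx1 ran from 347 to 419 in hypothalamus, against 966 to 1267 in BNST, a difference of -1.45 ± 0.09 (adjusted p = 1.1e-06). Syt1 ran from 605 to 900, against 1480 to 1665 in BNST, and Pvalb from 281 to 621, against 708 to 1117 in BNST. Their differences were -1.07 ± 0.09 for Syt1 and -1.29 ± 0.21 for Pvalb, and a second Pvalb probe set differed by -2.34. Syt1 was under the size threshold without B6 hypothalamus replicate 1, at -0.99. Cplx1 and Pvalb had mean log2 levels of 11.10 and 10.66 in midbrain-thalamus, above 10.03 and 9.89 in BNST. Syt1 had 9.55 in midbrain-thalamus, below 10.60 in BNST.

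Cortical and hippocampal neuron genes gave 3 lower calls among 13 tested, beside 1.02% of all tested genes, with 0 higher and a median of -0.19. Besides Tbr1 these were Kalrn, a signalling protein of dendritic spines, at -1.57 ± 0.12, and Ptk2b, a calcium-activated tyrosine kinase, at -1.48 ± 0.17. A second, dim Kalrn probe set differed by 0.26. Rasgrp1, a Ras exchange factor, fell by 1.70 on the log2 scale (SE 0.16), with 55.5 to 82.1 in hypothalamus against 152 to 262 in BNST. Kitl, the ligand of the Kit receptor, ran from 61.4 to 73.3 in hypothalamus, against 278 to 355 in BNST, a difference of -2.23 ± 0.10 (adjusted p = 3.63e-08). Kitl had means of 8.30 in BNST, 7.99 in amygdala, 8.02 in striatum and 7.90 in midbrain-thalamus. Endou, an endoribonuclease, and Sh3d19, an adaptor protein, differed by -2.06 ± 0.24 and -1.68 ± 0.20. The striatal and extended amygdala list, with 11 tested, had 1 lower call, Prkcd, 0 higher calls and a median of -0.24.

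Of 10 tested myelin genes, 2 fell, beside 1.02% of all tested genes, and 0 rose. Without the size threshold 9 passed the adjusted p on the lower side, where 11.4% of all tested genes did, and the median difference was -0.94. Mog, a surface protein of oligodendrocytes, had 166 to 221 in hypothalamus, against 334 to 437 in BNST, a difference of -1.05 ± 0.09 (adjusted p = 1.04e-05). Mag, myelin-associated glycoprotein, had 213 and 219 on the 129 and 396 and 341 on the B6 hypothalamus arrays, against 489 and 497 on the 129 and 627 and 703 on the B6 BNST arrays, a difference of -1.02 ± 0.08 (adjusted p = 5.96e-06). Both lie near the size threshold: Mag was under it, at -0.98 to -0.99, without any 1 of the 129 arrays, and Mog, at -0.96, without B6 hypothalamus replicate 2. A second, dim Mag probe set differed by 0.00. Mean levels of the list ran from 7.36 to 8.04 in hypothalamus, against 8.15 to 8.53 in BNST.

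Choroid plexus genes were high on the 129 BNST arrays. Ttr, transthyretin, the main secreted protein of choroid plexus epithelium, had 84.2 and 39.8 on the 129 and 21.7 and 29.3 on the B6 hypothalamus arrays, against 2715 and 1249 on the 129 and 50.4 and 151 on the B6 BNST arrays. The tissues overlapped over both strains. The difference was -3.39 ± 0.58 (adjusted p = 0.00134), and it was -4.99 in 129 and -1.79 in B6. Folr1, a folate receptor of the same epithelium, had 11.0 to 26.8 in hypothalamus, against 222 and 86.0 on the 129 and 28.7 and 22.5 on the B6 BNST arrays, and differed by -1.85 ± 0.36 (adjusted p = 0.00327). The Folr1 call was lost without either of the 129 BNST arrays. Kl, klotho, had 25.7 to 40.2 in hypothalamus, against 356 and 120 on the 129 and 10.7 and 18.9 on the B6 BNST arrays, and was not called. Over the 8 listed genes on the arrays the mean level ran from 5.34 to 6.00 in hypothalamus, against 5.31 to 8.12 in BNST, with the highest BNST values of 8.12 and 7.15 on the 129 arrays. Dissected choroid plexus had Ttr at 16105 to 19243. Without B6 hypothalamus replicate 1 and both 129 BNST arrays together, a choice made after the data were seen, 54 genes were higher and 71 lower, 74 of the 91 calls were kept, and Ttr differed by -1.58 (adjusted p = 0.0991).

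The tissue difference depended on strain for 45 of the 5186 genes (0.868%), at an adjusted p under 0.05 for the interaction. For 22 of them the signed hypothalamus minus BNST difference was higher in 129 than in B6, which need not mean larger in size. The count of 45 rested on single arrays. It was 109 without 129 hypothalamus replicate 2, 15 and 4 without B6 hypothalamus replicates 1 and 2, 2 and 6 without 129 BNST replicates 1 and 2, and 5 without B6 BNST replicate 2. Each strain had 2 arrays in each tissue.

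Smarca2, a catalytic subunit of the SWI/SNF chromatin remodelling complex, had the smallest adjusted p. Its intensities were 341 and 333 on the 129 and 208 and 202 on the B6 hypothalamus arrays, against 282 and 302 on the 129 and 393 and 399 on the B6 BNST arrays. In 129 the difference was 0.21 and in B6 -0.95, an interaction of 1.16 ± 0.12 (adjusted p = 0.00263). Serpina3n, a serine protease inhibitor of reactive astrocytes from a gene family with close copies, had 420 and 472 on the 129 and 203 and 193 on the B6 hypothalamus arrays, against 415 and 466 on the 129 and 82.7 and 83.0 on the B6 BNST arrays. Its tissues were level in 129, at 0.02, and differed by 1.26 in B6 (interaction -1.24 ± 0.14, adjusted p = 0.00403). With no level filter that adjusted p was 0.0745.

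Nr2f2, an orphan nuclear receptor related to Nr2f1, had 214 and 214 on the 129 and 126 and 120 on the B6 hypothalamus arrays, against 223 and 203 on the 129 and 254 and 235 on the B6 BNST arrays. The difference was 0.01 in 129 and -0.99 in B6, an interaction of 1.00 ± 0.14 (adjusted p = 0.0191). Syt4, a synaptotagmin of dense-core vesicles, differed by 0.54 in 129 and by -0.61 in B6. Cdkn1c, an imprinted cell-cycle inhibitor, had 68.2 and 54.4 on the 129 and 99.6 and 89.0 on the B6 hypothalamus arrays, against 167 and 95.7 on the 129 and 41.8 and 39.5 on the B6 BNST arrays, and so differed by -1.06 in 129 and 1.21 in B6. The interaction calls of Nr2f2, Syt4 and Cdkn1c were lost, at adjusted p of 0.0517 to 0.0611, without some arrays: all 3 without B6 hypothalamus replicate 2 or 129 BNST replicate 1, Nr2f2 without 129 BNST replicate 2, and Syt4 and Cdkn1c without B6 BNST replicate 2. Cdkn1c was also among genes high on the 129 BNST arrays, as were Ttr and Kl, whose interaction was -3.84 ± 0.63 (adjusted p = 0.0207). Its highest neural mean was in choroid plexus, and what part that tissue has in its strain dependence was not tested.

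**Figure D5:**
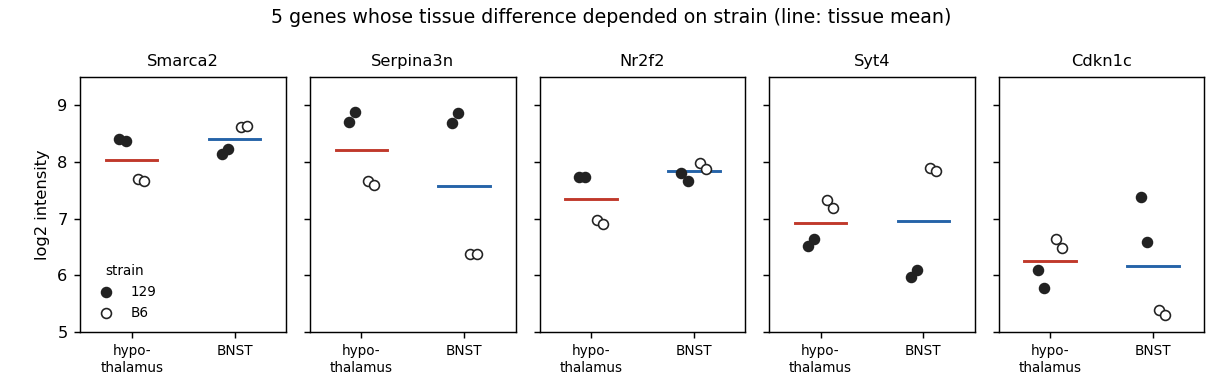
Level of the 5 genes with the smallest interaction p on every array (log2 intensity), hypothalamus left and BNST right, with strain 129 as filled circles and B6 as open circles; lines are means of 4 arrays. Serpina3n is level between tissues in 129 and higher in hypothalamus in B6, and Cdkn1c runs in opposite directions in the 2 strains.

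Set against the other 22 neural tissues, 12 of the 38 genes higher in hypothalamus had their highest mean there (31.6%), against 3.37% of all tested genes, which their choice as higher in hypothalamus favours. Among them were Avp, Hdc, Adcyap1, Crabp1, Sim1, Calcr and Magel2. For 8 of the 38 the highest of the other tissues was pituitary (21.1%), against 14.5% of all tested genes. Of the 53 lower genes, 8 had their highest neural mean in BNST (15.1%), against 2.7% of all tested genes, including Gbx2, Ramp3, Endou, Nr2f1 and Lhx6. For 6 of the 53 the highest of the other tissues was midbrain-thalamus (11.3%), against 2.04% of all tested genes. Cerebellum held that place for 8 of the 53 (15.1%) and motor cortex for 7 (13.2%), whose shares over all tested genes are not given here. These shares are given as descriptions, with no test.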

How the data were processed

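Total RNA from dissected tissue was hybridized to single-colour arrays. The deposited values are linear intensity values for each probe set. How they were computed from the scans is not given in the sources used here, and 5.99% of the values were below 0. Of 150 arrays, 2 with identical values were left out of the gene choice and tissue means. Of 12488 probe sets, 66 were controls and 10833 carried 1 symbol in the platform annotation. A gene was represented by its brightest probe set over 148 arrays. Intensities under 10.4, the 20th percentile, were raised to that floor and expressed as log2. A gene was tested if its mean passed 5.73 in at least 1 of the tissues. A gene low in 1 tissue could thus be tested through the other alone. Tissue and strain were fitted on the 8 arrays in R 4.3.3 using limma 3.58.1 (trended prior variance), with Benjamini-Hochberg adjustment and a threshold of 0.05 and a log2 difference of 1. For the interaction the adjusted p alone was used. The fits were tested on simulated data. Named genes were the 15 largest differences in each direction, up to 4 called members of a list, the markers and the 5 strongest interactions, with further list members given by value. Symbols are those of the platform annotation, and levels are not compared between genes. The arrays, the lists and the rule for naming genes were chosen with earlier results of these data known. Alternatives varied the floor, scaling, filter, probe sets, arrays, strains, variance prior and blocks.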

Additional observations from a re-analysis of the deposited data

Results flagged for a closer look

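Looking at 122 pairs of gene and tissue, 7 had 1 array far from the other 3, by a gap, as a share of the whole range, past Dixon's critical value for 4 arrays. Chance alone flags about 1 in 20. In hypothalamus these were Prl, high on B6 replicate 1 (0.855), F5, above the floor only on B6 replicate 1 (1.0), Mog, high on B6 replicate 1 (0.839), Rora, low on 129 replicate 2 (0.906), and Ptk2b, high on 129 replicate 2 (0.919). In BNST they were Txnrd3, low on B6 replicate 2 (0.976), and Cplx1, high on 129 replicate 2 (0.907). The F5 value rests on 12.1 against a floor of 10.4.

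The difference between hypothalamus and BNST itself differed between the strains for 5 named genes. The difference in 129 minus that in B6 was 1.16 for Smarca2, -1.24 for Serpina3n, 1.00 for Nr2f2, 1.15 for Syt4 and -2.27 for Cdkn1c, on the log2 scale. Of these, Smarca2 stayed under an adjusted p of 0.05 in the alternatives run, while Serpina3n was lost with no filter (0.0745), Nr2f2, Syt4 and Cdkn1c with no filter and with some single arrays left out, Syt4 and Cdkn1c with the Gapdh covariate (0.0509), and Cdkn1c with no trend in the prior variance (0.0643).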

How the results depend on the processing

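The counts of 38 higher and 53 lower genes ranged over 27 to 56 and 45 to 71 in the alternatives other than single strains. In B6 alone 83 were higher and 63 lower, and in 129 alone 34 and 69. With each array left out in turn the higher count ran from 32 to 56 and the lower from 52 to 62, and 67 of the 91 calls, 24 higher and 43 lower, were kept each time. A replicate block joining arrays of a strain with the same title numbers gave 39 higher and 54 lower and kept all 91 calls. Only 2 of the 8 arrays share such numbers. No filter gave 53 and 57 and kept 79, and every probe set tested separately gave 45 and 66. The filter on the mean over the 8 arrays gave 27 and 45 and kept 72 of the 91 calls, losing 19. Rbp4, Fmod, Crabp1, Col1a1, Gstm6, Sim1, Mia, Gabrd, Gbx2, Endou, Folr1, Tbr1 and Sh3d19 were below that filter. They were tested in the main fit through the tissue where they were high. Interactions fell to 8 with no filter, 7 with no trend in the prior variance and 5 with the Gapdh ratio as covariate, and ran from 2 to 109 with 1 array left out. The causes were not tested. Among the named genes, no called probe set's difference changed sign in the alternatives run. Second, dim probe sets of Fmod (-0.05) and Kalrn (0.26) had the opposite sign, and those of Txnrd3 and Mag differed by 0.00. Genes at the floor have only a bound, and dim genes below the filter were not tested.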
